A study of Mus musculus with 5 samples.

Results

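The 10 genes described here restrain the cell cycle or respond to p53, and are 10 rows of a deposited table of 23234 mouse genes. They were chosen by name: the cyclin-dependent kinase inhibitors Cdkn1a, Cdkn1b, Cdkn2b, Cdkn2c and Cdkn2d, the antiproliferative genes Btg1 and Btg2, and the p53 targets Trp53inp1, Ccng1 and Mdm2. RNA was sequenced from GFP-positive cells sorted from CD1 mouse cortex, with a construct expressing Ptf1a and GFP in 3 samples and a construct expressing GFP alone in 2 samples. Constructs were electroporated at E12.5 and cells were collected at E15.5 (E, embryonic day), with 3 to 6 brains pooled in each sample and up to 106000 cells obtained. Cells of both groups were therefore electroporated, carried GFP and were sorted. The promoter that drives the constructs is not given in the sources used here. Ptf1a, a transcription factor of the basic helix-loop-helix class, directs inhibitory neuron fate elsewhere in the nervous system.

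A cortical progenitor that stops dividing must silence the kinases that carry it from G1 into S phase. The Cip/Kip inhibitors p21 (Cdkn1a) and p27 (Cdkn1b) bind cyclin-kinase complexes, while the Ink4 inhibitors p15, p18 and p19 (Cdkn2b, Cdkn2c and Cdkn2d) bind the kinases Cdk4 and Cdk6. Btg1 and Btg2 recruit the deadenylase complex that shortens messenger RNA tails, and Btg2, also known as Tis21, marks cortical progenitors that are about to make neurons. The tumour suppressor p53 switches on Cdkn1a, Btg2, Trp53inp1, Ccng1 and Mdm2 after DNA damage, and Mdm2 in turn marks p53 for destruction.

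Levels are the authors' group values in FPKM (fragments scaled by transcript length and library size), 1 for each group, so no spread between samples and no depth per sample can be shown. The error given beside a fold is an implied standard error, the deposited log2 fold change divided by the deposited test statistic. The words rose and fell are used of a gene whose q-value in the authors' deposited table was under 0.05, for Ptf1a relative to GFP-only. Ptf1a was at 0.210 FPKM in GFP-only cells and 38.9 FPKM in the other group, with reads of construct and endogenous gene counted alike. Of the 10 genes, 9 had a test and Cdkn2b had none.

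Of the 9 tested genes, 5 rose (Cdkn1a, Cdkn2c, Btg1, Btg2 and Trp53inp1), 0 fell and 4 did not pass the test (Cdkn1b, Cdkn2d, Ccng1 and Mdm2). Over all 11876 tested genes the authors' test called 18.7% risen and 19.1% fallen. At an unadjusted p under 0.05 in the authors' Cuffdiff test, the counts for the 9 genes were also 5 and 0. The share of all tested genes at that unadjusted threshold was not computed, so these counts have no background beside them. The median log2 difference of the 9 genes, on the log2(FPKM + 0.1) scale, was 1.01, beside -0.01 over all tested genes. The 5 risen genes stood between 2.02 and 2.97 times their control level, and the other tested genes between 0.892 and 1.31 times. No tested gene of the 10 lay between these ranges. With a two-sided normal p computed from the test statistic (the normal p from here on), adjusted over all tested genes by Benjamini-Hochberg, 4 of the 5 were called, Cdkn2c being the exception, beside 3.30% of all tested genes called risen and 2.80% fallen. Both Btg genes rose, as did 2 of the 4 tested kinase inhibitors and 1 of the 3 genes grouped as p53 targets. Cdkn1a and Btg2, which p53 also switches on and which rose, are counted here by their other role.

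**Figure D1:**
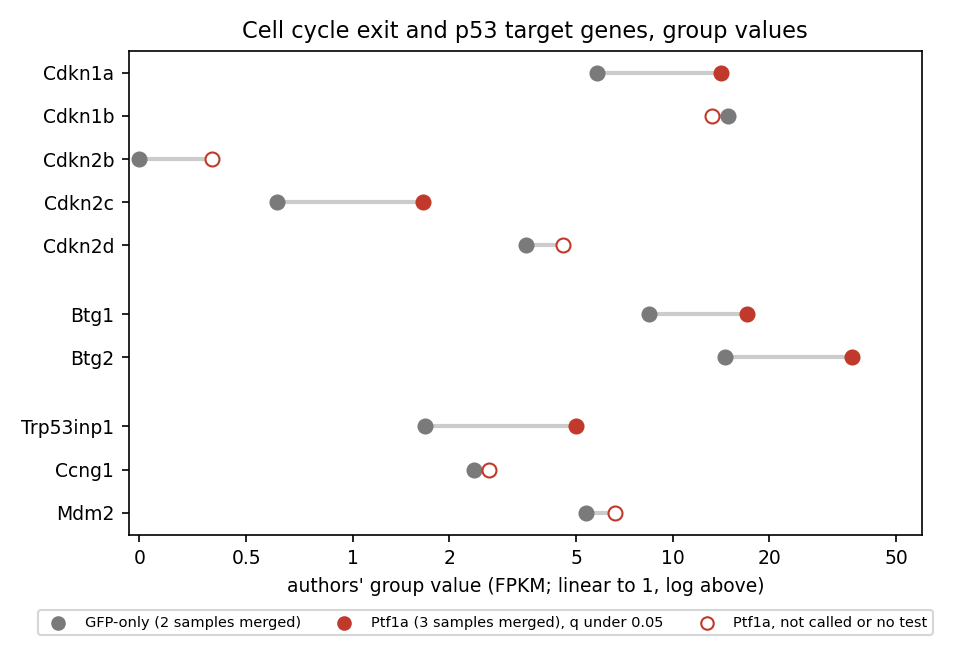
Group values of the 10 genes in FPKM, on an axis that is linear up to 1 and logarithmic above it, with grey points for GFP-only and red points for Ptf1a (filled where the deposited q was under 0.05). The 5 filled genes lie at least 2.02 times above their grey points, Cdkn1b lies slightly below its own, and Cdkn2b starts at 0.

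Of the Cip/Kip inhibitors, Cdkn1a rose and Cdkn1b did not pass the test. Cdkn1a, the p21 gene (chromosome 17, 29227931 to 29237667, mm9), stood at 5.79 FPKM in GFP-only cells and 14.2 FPKM with Ptf1a. The authors' deposited table gives a log2 fold change of 1.29 (implied standard error 0.36) with q = 0.000329. Cdkn1b, the p27 gene (chromosome 6, 134870419 to 134875543, mm9), stood at 14.9 and 13.3 FPKM, with a log2 fold change of -0.17 (implied standard error 0.28) and q = 0.345 in the authors' deposited table. In GFP-only cells the p21 transcript was thus at 0.388 of the p27 transcript per length, and with Ptf1a at 1.06 of it. Cdkn1b was the most abundant of the 10 genes in GFP-only cells and the 4th with Ptf1a. Cdkn1a moved from the 4th to the 3rd place. That the Cdkn1a and Cdkn1b folds differ from each other was not tested.

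Cdkn1a is the textbook p53 target, so the bases ahead of its upstream start site are shown with those of Ccng1 and Mdm2, p53 targets whose transcripts did not pass the test. Each stretch runs from base 250 to base 26 before an annotated start (RefSeq, GRCm38.p6) and holds no annotated exon: chr17:29090729-29090953 on the plus strand for Cdkn1a, chr11:40755312-40755536 on the minus strand for Ccng1, and chr10:117710784-117711008 on the minus strand for Mdm2. Capitals mark matches to the p53 half-site, taken as RRRCWWGYYY (R is A or G, W is A or T, Y is C or T) with no mismatch allowed. The bases directly after the second Cdkn1a match miss these letters only at their first base and stay in lower case. All are written 5′ to 3′.
Cdkn1a: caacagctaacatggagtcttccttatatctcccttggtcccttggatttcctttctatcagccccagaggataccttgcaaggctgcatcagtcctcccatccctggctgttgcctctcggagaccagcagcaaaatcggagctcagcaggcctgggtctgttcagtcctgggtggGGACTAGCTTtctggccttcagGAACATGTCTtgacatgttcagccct
Ccng1: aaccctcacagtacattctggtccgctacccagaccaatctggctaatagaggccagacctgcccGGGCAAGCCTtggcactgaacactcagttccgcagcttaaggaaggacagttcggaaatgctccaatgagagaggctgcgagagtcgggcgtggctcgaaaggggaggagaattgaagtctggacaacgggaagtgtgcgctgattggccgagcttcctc
Mdm2: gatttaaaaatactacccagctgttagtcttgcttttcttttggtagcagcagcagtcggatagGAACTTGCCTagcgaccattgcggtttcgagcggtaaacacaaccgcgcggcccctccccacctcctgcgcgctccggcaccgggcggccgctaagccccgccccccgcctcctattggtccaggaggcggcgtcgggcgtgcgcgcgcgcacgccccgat

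A p53 half-site was searched for on both strands of every 300-base window from 250 bases before to 50 after a start. Windows were found for 9 of the 10 genes, matched by symbol, with none for Trp53inp1, which was therefore not searched for any motif. Of the 9, 4 held a match: Cdkn1a, Cdkn2d, Ccng1 and Mdm2. The share over 32851 windows of all genes was 8.36%. These 9 genes had 11 windows, with 2 each for Cdkn1a and Cdkn2c. A gene was counted if any of its windows matched, whereas the share is per window. Cdkn1a had 2 matches, beginning 73 and 51 bases before its upstream start, and 0 in the window of its other start. Ccng1 and Mdm2 had 1 each, beginning 185 and 186 bases before theirs. Of the 4 genes with a match, 1 rose and 3 did not pass the test. Of these 3, the deposited row of Cdkn2d lies between other neighbours than its RefSeq gene, as described below. The windows of Btg1, Btg2 and Cdkn2c, which rose, held no such letters. Trp53inp1, which also rose, was not searched. A match of letters shows no binding, and sites outside these windows or with other letters were not searched.

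Of the Ink4 genes, Cdkn2b and Cdkn2c had the lowest FPKM of the 10 genes in both groups. Cdkn2c, the p18 gene (chromosome 4, 109333481 to 109337977, mm9), rose from 0.645 to 1.66 FPKM. Its log2 fold change was 1.36 with the widest implied standard error of the 9 tested genes, 0.84, and q = 0.0237 in the authors' deposited table. The log2 fold is therefore 1.62 of its implied standard errors, the deposited test statistic. By the normal p its adjusted p was 0.45 and the call was lost. Cdkn2b, the p15 gene (chromosome 4, 88952198 to 88956941, mm9), was listed at 0 in GFP-only cells and at 0.342 FPKM with Ptf1a, in a row without a test, so no fold is given.

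Cdkn2d, the p19 gene, stood at 3.48 and 4.54 FPKM, with a log2 fold change of 0.39 (implied standard error 0.44) and q = 0.194 in the authors' deposited table. This row needs care. The table places it on chromosome 9 at 123836860 to 123839607 (mm9), between the chemokine receptor genes Xcr1 and Ccr1. RefSeq on GRCm38.p6 places the gene between Kri1 and Ap1m2 on the same chromosome. Of the 3 nearest shared protein-coding genes on each side, 0 of 6 were the same in both annotations for Cdkn2d, against 6 of 6 for each of the other 9 genes. The row spans 2748 bases and the RefSeq gene 2963 bases. Whether reads from another copy of the sequence enter the Cdkn2d value was not tested.

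The Btg genes rose together. Btg2 (chromosome 1, 135971442 to 135975732, mm9) stood at 14.6 FPKM in GFP-only cells and 36.3 FPKM with Ptf1a, a log2 fold change of 1.32 (implied standard error 0.26) with q = 0.000329 in the authors' deposited table. With Ptf1a it was the most abundant of the 10 genes, and its test statistic of 5.12 was the highest among them. Btg1 (chromosome 10, 96079635 to 96085445, mm9) stood at 8.43 FPKM in GFP-only cells and 17.1 FPKM with Ptf1a, a log2 fold change of 1.02 (implied standard error 0.27) with q = 0.000329 in the same deposited table of the authors. The Btg2 transcript stood at 1.73 times the Btg1 transcript per length in GFP-only cells and at 2.13 times with Ptf1a.

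Ptf1a acts with the factor Rbpj, whose binding letters include TGGGAA, and the stretch ahead of the Btg2 start is shown because it holds that word. It lies at chr1:134079181-134079405 on the minus strand (RefSeq, GRCm38.p6), again from base 250 to base 26 before the start and free of annotated exons, with the match, on the opposite strand, in capitals.
Btg2: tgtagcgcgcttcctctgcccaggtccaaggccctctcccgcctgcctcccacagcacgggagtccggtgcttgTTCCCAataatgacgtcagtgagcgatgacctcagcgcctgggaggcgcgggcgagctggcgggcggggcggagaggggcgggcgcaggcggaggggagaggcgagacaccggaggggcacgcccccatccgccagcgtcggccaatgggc

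The word TGGGAA, searched on both strands, occurred in windows of 3 of the 9 genes (Cdkn1a, Cdkn2d and Btg2) and in 25.6% of all windows. The E-box letters CANNTG, which basic helix-loop-helix factors bind and which read the same on both strands, occurred in windows of 4 genes (Cdkn1a, Cdkn2b, Cdkn2c and Mdm2) and in 72.3% of all windows. The windows of Btg1 and Btg2 held no E-box letters. GGGCGG, the core of Sp1 boxes, occurred in windows of 8 of the 9 genes, all but Ccng1, and in 35.7% of all windows. Here too a gene was counted if any of its windows matched, whereas the shares are per window. The motifs are descriptions of these windows alone.

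Of the 3 genes grouped as p53 targets, Trp53inp1 (chromosome 4, 11083588 to 11101524, mm9) rose from 1.68 to 4.98 FPKM. It encodes a p53-induced nuclear protein of stress and autophagy. Its log2 fold change of 1.57 (implied standard error 0.38) was the highest of the 9 tested genes, with q = 0.000329 in the authors' deposited table. Mdm2, the ubiquitin ligase of p53 (chromosome 10, 117125961 to 117147772, mm9), stood at 5.37 and 6.59 FPKM, a log2 fold change of 0.30 (implied standard error 0.33) with q = 0.119 in the authors' deposited table. Ccng1, which encodes cyclin G1 (chromosome 11, 40562054 to 40568788, mm9), stood at 2.40 and 2.67 FPKM, a log2 fold change of 0.15 (implied standard error 0.41) with q = 0.546 in the authors' deposited table. Cdkn1a and Mdm2 were at nearly the same level per length in GFP-only cells, a ratio of 1.08, and with Ptf1a the ratio was 2.15.

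**Figure D2:**
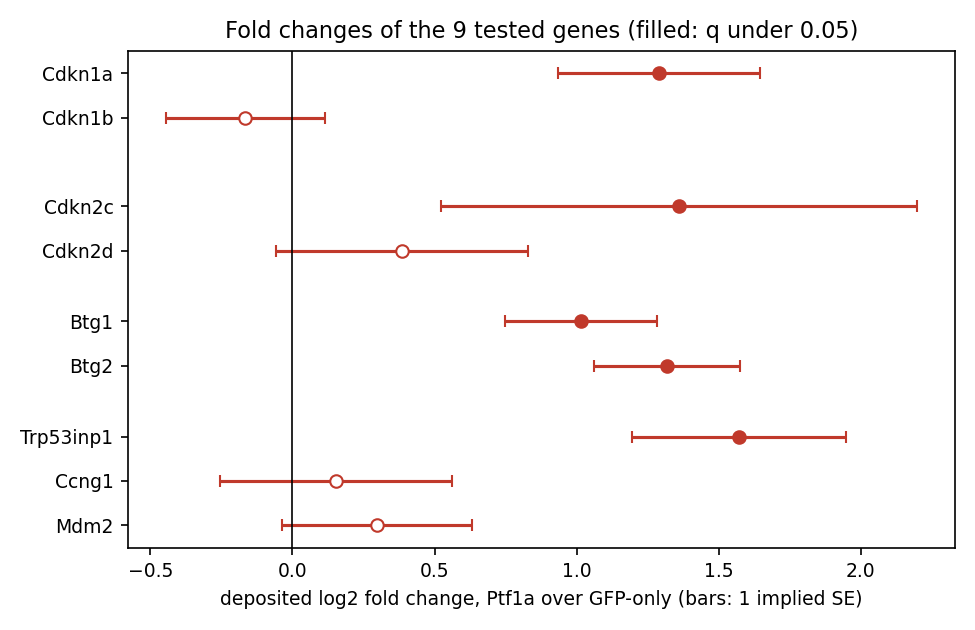
Deposited log2 fold changes of the 9 tested genes, Ptf1a over GFP-only, with bars of 1 implied standard error on each side and filled points where q was under 0.05. The 5 filled genes lie between 1.02 and 1.57, and the bars of Cdkn1b, Cdkn2d, Ccng1 and Mdm2 cross 0.

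The q of 0.000329 that Cdkn1a, Btg1, Btg2 and Trp53inp1 share is the smallest in the deposited table. It belongs to a p-value of 5e-05, held by 1803 genes or 40.2% of the called genes, so it does not rank these 4 genes. A larger log2 difference than that of Trp53inp1 was found in 3.66% of tested genes, than that of Btg2 in 4.82%, than that of Cdkn1a in 5.21%, than that of Cdkn2c in 5.53% and than that of Btg1 in 7.70%. For the genes that did not pass, the share was 23.5% for Cdkn2d, 28.1% for Mdm2, 37.2% for Ccng1 and 64.1% for Cdkn1b.

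The difference between groups depended on abundance across the whole table, which touches these genes unequally. When tested genes were cut into 10 deciles of mean FPKM, the lowest had a median log2 difference of 0.47 and the highest one of -0.32. Cdkn1a and Btg1 lay in the 7th decile, where the median was -0.06 and 15.7% of genes were called risen, and Btg2 in the 8th, with a median of -0.09 and 12.6% risen. Trp53inp1 lay in the 5th decile (median 0.08, 20.8% risen) and Cdkn2c in the 2nd (median 0.20, 26.1% risen). Less the median of its decile, the log2 difference was 1.44 for Trp53inp1, 1.40 for Btg2, 1.33 for Cdkn1a, 1.07 for Btg1 and 1.04 for Cdkn2c. It was 0.01 for Ccng1 and -0.11 for Cdkn1b. In the highest decile 58.2% of genes were called fallen. Of the fallen genes named below, Skp1a, Atf4, Neurod6 and Rprm lay there. Less the median of that decile, their log2 differences were -0.01, -0.13, -0.21 and -0.45.

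**Figure D3:**
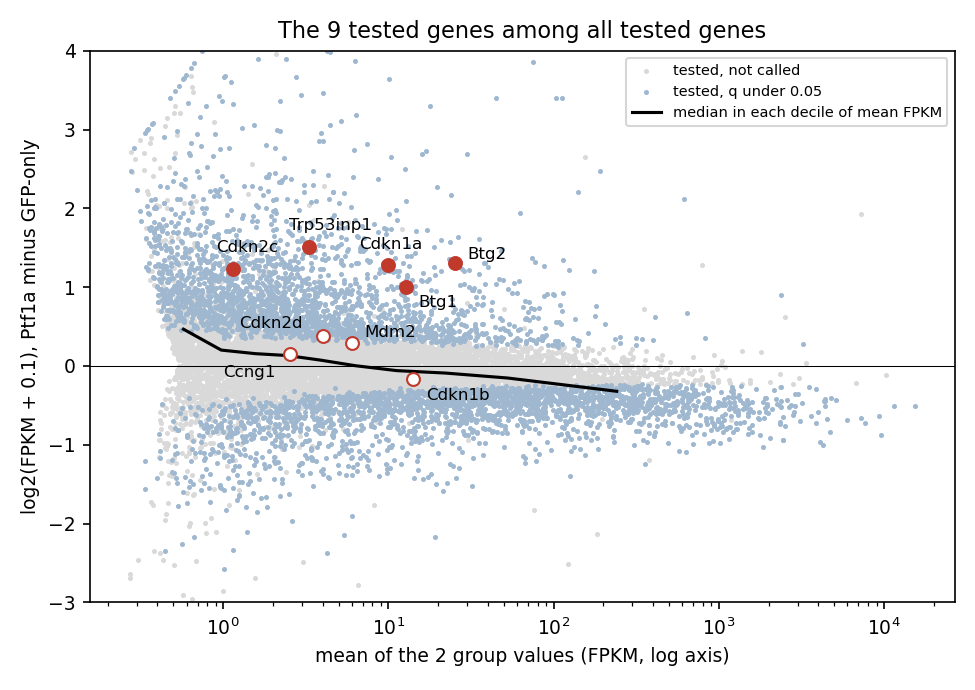
Log2 difference against mean FPKM (log axis) for the tested genes, with those called in blue, the median of each decile as a black line, and the 9 tested genes as red circles, filled where called; 70 genes lie outside the plotted range. Cdkn1a, Btg1, Btg2, Cdkn2c and Trp53inp1 stand at 1.01 or higher, and Ccng1 and Cdkn1b close to the line.

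Relatives of these genes were read next. Counts in these and the later lists stand beside 18.7% of all tested genes called risen and 19.1% fallen. By the normal p those shares were 3.30% and 2.80%. Of the 3 other kinase inhibitor genes, Cdkn3, which encodes a phosphatase acting on cyclin-dependent kinases, rose from 11.5 to 20.1 FPKM. Cdkn1c, the p57 gene, stood at 16.4 and 20.2 FPKM and did not pass the test (q = 0.0746 in the authors' deposited table). Cdkn2a was listed at 0 in GFP-only cells and at 0.0810 FPKM with Ptf1a, without a test. Of the 4 other Btg and Tob genes 3 were tested and 0 were called by the authors' Cuffdiff test or the normal p, with 1, Tob2, at an unadjusted p under 0.05. Tob1 stood at 3.23 and 2.76 FPKM, Tob2 at 1.03 and 1.48 FPKM, and Btg3 at 0.00279 and 1.94 FPKM with an implied standard error of 22.4 on the log2 scale. Btg4 was listed at 0 in GFP-only cells and had no test. By distance in log2(FPKM + 0.1) over the 2 group values, the named genes nearest to Cdkn1a were Ddah1 (5.86 and 13.7 FPKM), Ss18 (6.06 and 14.1 FPKM) and Cdca5 (5.73 and 13.2 FPKM), at distances of 0.0479, 0.0648 and 0.102. With only 2 values a gene, such nearness says little.

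The kinases and cyclins that the inhibitors act on rose in 5 of 7 tested genes, with 0 fallen and a median log2 difference of 1.14. Cdk2, the partner of cyclin E and a direct target of p21 and p27, went from 2.37 to 8.23 FPKM, Ccnd2 from 25.7 to 99.2 FPKM, Ccne2 from 0.788 to 1.86 FPKM and Ccne1 from 0.393 to 1.47 FPKM. Cdk4, the kinase that Ink4 proteins bind, was uncalled at 1025 and 1032 FPKM. By the normal p, Ccnd2 and Cdk2 were called and the other 3 rises were not. Set against Cdk2, the p21 and p27 transcripts together stood at 8.73 times its level per length in GFP-only cells and at 3.34 times with Ptf1a. The sum of both inhibitor transcripts itself went from 20.7 to 27.5 FPKM. Relative to Cdk2, which rose, this sum with Ptf1a was 0.382 of the control ratio, and relative to the uncalled Cdk4 it was 1.32 times the control ratio. The direction of this ratio thus turns with the kinase chosen, and neither ratio has a test. Among pocket proteins and their partners, which hold cell cycle genes silent, 3 of 9 rose (Rbl1, Lin54 and Lin52) and Rb1 stood at 2.99 and 3.15 FPKM without a call; by the normal p 0 of the 9 were called. In the ligase that removes p27, Skp2 rose from 1.77 to 4.0 FPKM, Skp1a fell from 682 to 542 FPKM, Cul1 fell from 29.5 to 20.3 FPKM, and Cks1b and Rbx1 were not called. None of these 3 calls held by the normal p. Skp1a lay in the highest decile of mean FPKM, where 58.2% of genes were called fallen. Less the median of that decile, the log2 difference of Skp1a was -0.01.

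Trp53, the p53 gene itself, did not pass the test at 120 and 131 FPKM, with q = 0.344 in the authors' deposited table. Of 12 tested genes for p53 and its regulators 3 rose, the kinases Hipk2 (2.26 to 4.83 FPKM), Chek2 (1.18 to 2.46 FPKM) and Chek1 (0.448 to 0.949 FPKM), and 0 fell. The share called risen over all tested genes was 18.7%. By the normal p, 0 of these 12 genes were called.

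Other p53 targets held calls in both directions, as did all tested genes, of which 18.7% were called risen and 19.1% fallen. In a list of arrest and repair targets 6 of 19 tested genes rose and 3 fell, with a median log2 difference of -0.09. The risen ones with the largest differences were Sfn (0.296 to 1.31 FPKM), Sesn2 (0.193 to 0.724 FPKM), Gtse1 (1.40 to 3.16 FPKM) and Ckap2 (3.74 to 7.20 FPKM). Gtse1 and Ckap2 are also genes of dividing cells, as is Psrc1, which rose too and is named after its value was seen. By the normal p, 0 of the 6 rises and 2 of the 3 falls were called. The fallen, named after their values were seen, were Rprm (231 to 135 FPKM), Ak1 (49.1 to 28.2 FPKM) and Sesn1 (16.4 to 11.2 FPKM), and Plk2 stood at 66.9 and 57.2 FPKM without a call. In a list of death targets 1 of 10 tested genes rose, Siva1 (47.7 to 68.0 FPKM), and 1 fell, Apaf1 (0.993 to 0.646 FPKM), with a median of -0.03. Bax, which had the highest level in that list, was uncalled at 310 FPKM in GFP-only cells and 270 FPKM with Ptf1a. That these lists differ from the 10 genes was not tested.

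**Figure D4:**
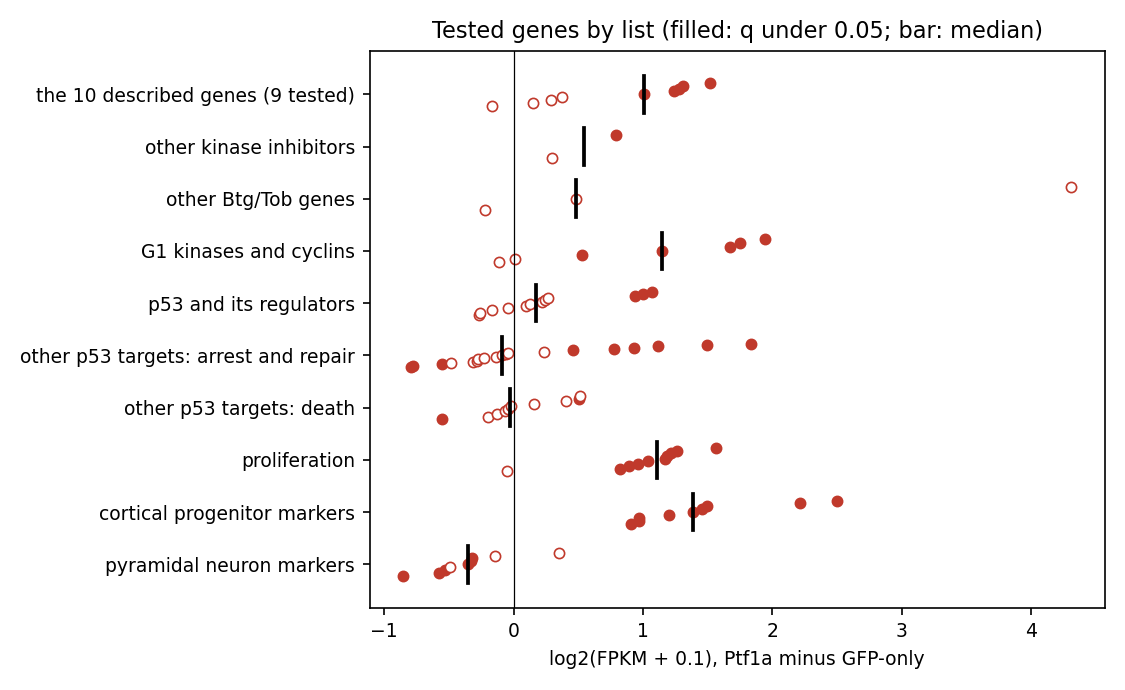
Log2 difference of each tested gene in 10 of the lists, filled where q was under 0.05, with a black bar at each list's median. The medians of the described genes (1.01 over the 9 tested), the G1 kinases and cyclins (1.14) and the proliferation genes (1.10) lie to the right of 0. Those of the p53 target lists are -0.09 and -0.03. The lone point at the far right is Btg3, which was not called.

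Markers of dividing cells moved with the risen genes. Of 10 proliferation genes 9 rose and 0 fell, or 8 and 0 by the normal p. Among the risen were Mki67 (0.625 to 2.04 FPKM), Ccnb1 (23.4 to 56.3 FPKM), Ccnb2 (18.4 to 42.9 FPKM) and Mcm2 (5.32 to 12.2 FPKM), while Pcna stood at 230 and 223 FPKM. All 9 cortical progenitor markers rose (8 by the normal p). Their summed level went from 1805 to 3463 FPKM, most of it from Fabp7 (1652 to 3095 FPKM). Pyramidal neuron markers were present in both groups, with a summed level of 1829 and 1275 FPKM, most of it from Neurod6 (1717 and 1190 FPKM). They fell in 6 of 9 genes, or 1 of 9 by the normal p. Of 5 tested interneuron markers 4 rose (1 by the normal p), with a summed level of 7.11 and 15.6 FPKM. The sorted cells of both groups thus held progenitor transcripts as well as pyramidal ones. In RNA of bulk cells, fewer cells of a type and less RNA per cell cannot be told apart, and the part that the mix of cells plays in the rises of Cdkn1a, Cdkn2c, Btg1, Btg2 and Trp53inp1 was not tested.

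In the lists of cells from outside the cortical lineage no tested gene was called risen. Microglial markers summed to 14.6 and 9.24 FPKM, with 1 of 4 tested genes fallen. Endothelial markers summed to 3.11 and 4.46 FPKM, with 0 of 1 called, and meningeal markers to 3.95 and 2.42 FPKM, with 1 of 2 fallen. Red blood cell markers summed to 149 and 62.1 FPKM, with 3 of 5 fallen and 2 further genes of the list absent from the table under their symbols. No marker of these lists was listed at 0 in either group.

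Btg2 and Cdkn1a can also be induced with immediate early genes and by cell stress, so those lists were read beside them. Of 12 immediate early genes 4 rose and 4 fell, or 2 and 0 by the normal p. Arc rose from 0.510 to 2.82 FPKM, Egr1 from 2.49 to 8.70 FPKM and Egr2 from 0.310 to 0.756 FPKM, Junb fell from 3.72 to 2.12 FPKM, and Fos stood at 71.9 and 71.6 FPKM. Of 7 genes of the integrated stress response 1 rose, Trib3 (0.147 to 0.710 FPKM), and 4 fell, Atf4 (133 to 97.1 FPKM), Asns (91.4 to 63.1 FPKM), Chac1 (12.1 to 8.03 FPKM) and the cystine exchanger gene Slc7a11 (30.0 to 0.189 FPKM), the only one of these called by the normal p. Whether either response bears on Btg2 or Cdkn1a was not tested.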

How the data were processed

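Per the labels' protocols, 2.1 to 7.8 ng of RNA (integrity number over 8) was amplified for each sample, and libraries made with 10 PCR cycles were sequenced as 50 bp read pairs. Per the submitters' processing notes, the build was mm9 and the authors' tools were Cuffdiff, Cufflinks 2.1.1, TopHat2 2.0.8 and CASAVA 1.8.2; the Cuffdiff version, annotation and settings are not given in the sources used here. The deposited table gives 1 FPKM value per group, with log2 fold change, test statistic (a signed score), p-value and q-value, per the file headers. Its group PIG was read as Ptf1a, since the other is GFP. Locus starts were taken as 0-based and 1 was added.

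No model could be fitted without values per sample, so calls are the authors' (deposited q under 0.05, adjusted over all genes tested), and depth is unknown. Recomputing the Benjamini-Hochberg adjustment gave the deposited q-values within 5.2e-07. Log2 differences used a pseudocount of 0.1 FPKM. The 10 genes and the 18 other lists were chosen with earlier results of these data known, so a list is described by counts and its median. Named are all 10 genes and, in each other list, up to 4 called genes with the largest difference and the uncalled gene with the highest mean; lists of up to 9 may be named whole. Promoter windows came from RefSeq (GRCm38.p6) and exons from GENCODE M21. Alternatives were other q thresholds, a normal p from the test statistic, a 1.5-fold minimum, a 1 FPKM minimum, other pseudocounts and centring. The adjustment of the normal p was tested on simulated, normally distributed test statistics. That cannot show whether the deposited test statistics follow the same distribution. Python 3.11.15, scipy 1.17.1 and pandas 2.3.3 were used.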

Additional observations from a re-analysis of the deposited data

How the results depend on the processing

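The count of 5 risen genes among the 9 tested was 4 at a q under 0.01 and 4 with the two-sided normal p, Cdkn2c being the gene lost each time. It was 5 at a q under 0.10, with a 1.5-fold minimum and with the adjustment repeated over genes of at least 1 FPKM. The count of fallen genes was 0 under each of these. Over all tested genes the share called risen was 12.9% at a q under 0.01 and 3.30% with the normal p. That share was 22.2% at a q under 0.10, 13.0% with the fold minimum and 18.0% among genes of at least 1 FPKM. In the same order, the shares called fallen were 12.9%, 2.80%, 22.7%, 7.70% and 21.3%. The median log2 difference of the 9 genes, 1.01, lay between 0.69 (pseudocount of 1) and 1.04 (less the median of each gene's decile of mean expression). No gene of the 9 changed direction. Over all tested genes the authors' test made 4480 calls and the normal p 724, and the cause of that gap was not tested. Of the 36 counts over the other lists, 17 moved by more than 1.5 times with the normal p, 9 at a q under 0.10, 5 with the fold minimum, 3 with the FPKM minimum and 2 at a q under 0.01. No paired analysis was possible because the columns hold 1 merged value for each group, and no sample could be left out for the same reason. Weakly expressed genes had wider errors: the median implied standard error was 0.78 in the lowest decile of mean expression and 0.21 in the highest, which limits Cdkn2c most.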
